A study of Mus musculus with 4 samples.

Results

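The exons described here are the cassette exons longer than 80 nt whose length is a multiple of 3, among the splicing events that the authors reported between testes of Ptbp2-deficient and wild-type mice. They were chosen by event type and by length alone, with the length taken as the end minus the start, and not by how their splicing differed. This gave 249 exons in 241 genes, out of 741 cassette exons and 1223 events in 915 genes. The libraries came from whole testes of male C57BL/6 mice at postnatal day 25, with 2 mice labelled Ptbp2-deficient through a conditional knockout (cKO) and 2 labelled wild type (WT). Each library came from 1 mouse and was made from polyadenylated RNA with paired-end reads. The sources used here do not name the Cre driver, the cells in which it acts or the deleted part of Ptbp2.

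A cassette exon is either spliced into the mature transcript or skipped as a whole. When it lies inside the coding sequence and its length is a multiple of 3, both forms keep the downstream reading frame, and the proteins differ by an internal stretch of residues. When the length is not a multiple of 3, the downstream frame changes, which often brings an early stop codon and decay of the transcript. Ptbp2 is a splicing regulator of neurons and germ cells from the family of polypyrimidine tract binding proteins. It binds RNA stretches rich in C and U and can repress or favour an exon depending on where it binds.

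Percent spliced in (PSI) is the share of a gene's transcripts that hold the exon, and the authors deposited a single difference in PSI between the genotypes, ΔPSI, for each event, in percentage points. The order of subtraction is not stated, so only the sign and size of ΔPSI are given, and a sign does not tell which genotype included the exon more. ΔPSI came without values per mouse, coverage or p-values, so it carries no replicate error, and no test was made on it.

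The sequences of 11 of these exons show which RNA stretches had a large ΔPSI. They are among the 6 of largest absolute ΔPSI in each direction among exons of up to 300 nt that are read as coding throughout in every protein-coding transcript that holds them, with at least 1 of those transcripts annotated over its whole coding sequence. They are given 5′ to 3′ on the transcribed strand, with T for U, from the transcripts of GENCODE release M21 (mouse build mm10). Capitals mark the pyrimidine tetramers TCTT and CTCT, and adjoining or overlapping copies run together. The exons with negative ΔPSI were Rapgef1 at chr2:29719593-29719850 (+), Grip1 at chr10:120038599-120038793 (+), Dgkh at chr14:78581479-78581571 (-), Ralgapa1 at chr12:55735034-55735174 (-), Myo18a at chr11:77815856-77815999 (+).
Rapgef1: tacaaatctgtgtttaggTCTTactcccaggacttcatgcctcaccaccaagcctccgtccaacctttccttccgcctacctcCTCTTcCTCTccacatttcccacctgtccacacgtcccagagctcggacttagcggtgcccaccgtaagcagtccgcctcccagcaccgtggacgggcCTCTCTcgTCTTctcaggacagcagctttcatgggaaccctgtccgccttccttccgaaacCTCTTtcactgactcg
Grip1: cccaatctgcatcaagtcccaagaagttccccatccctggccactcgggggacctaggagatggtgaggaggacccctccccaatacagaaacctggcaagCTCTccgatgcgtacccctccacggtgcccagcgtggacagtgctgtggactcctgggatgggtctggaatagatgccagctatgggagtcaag
Dgkh: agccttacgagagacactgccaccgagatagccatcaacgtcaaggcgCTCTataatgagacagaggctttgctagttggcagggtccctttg
Ralgapa1: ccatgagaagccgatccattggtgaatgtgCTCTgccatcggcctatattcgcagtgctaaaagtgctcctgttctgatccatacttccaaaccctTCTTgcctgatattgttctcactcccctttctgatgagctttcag
Myo18a: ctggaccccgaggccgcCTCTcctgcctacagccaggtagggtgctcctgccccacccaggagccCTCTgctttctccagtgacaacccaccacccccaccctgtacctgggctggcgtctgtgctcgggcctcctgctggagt
The exons with positive ΔPSI were Immt at chr6:71852730-71852867 (+), Caps2 at chr10:112190952-112191071 (+), Mprip at chr11:59741991-59742098 (+), Immt at chr6:71853173-71853268 (+), Arhgap39 at chr15:76730364-76730456 (-), Fbxl13 at chr5:21524454-21524552 (-).
Immt (138 nt): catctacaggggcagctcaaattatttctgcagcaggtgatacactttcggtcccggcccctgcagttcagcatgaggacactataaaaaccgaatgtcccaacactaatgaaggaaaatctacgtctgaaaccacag
Caps2: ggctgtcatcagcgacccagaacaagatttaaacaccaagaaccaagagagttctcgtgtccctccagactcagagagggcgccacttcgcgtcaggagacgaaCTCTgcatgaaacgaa
Mprip: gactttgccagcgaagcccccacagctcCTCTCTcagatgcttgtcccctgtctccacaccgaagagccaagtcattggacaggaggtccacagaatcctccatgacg
Immt (96 nt): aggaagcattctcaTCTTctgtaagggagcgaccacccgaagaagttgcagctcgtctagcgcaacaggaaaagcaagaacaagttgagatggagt
Arhgap39: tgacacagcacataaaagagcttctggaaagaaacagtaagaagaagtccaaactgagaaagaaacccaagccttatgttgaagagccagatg
Fbxl13: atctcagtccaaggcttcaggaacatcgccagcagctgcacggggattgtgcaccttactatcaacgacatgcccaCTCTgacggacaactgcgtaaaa
The Rapgef1 exon held 4 copies of TCTT and 5 of CTCT, while the exons of Immt (138 nt) and Arhgap39 held neither.

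The ΔPSI values of the 249 exons ran from -76 to 62 points, with a median of 1. Of these exons, 115 had a negative ΔPSI, 128 a positive one and 6 a value of 0, so that 47.3% of those that were not 0 were negative. The negative share was 49.8% among the 230 longer cassette exons that shift the frame, 61.2% among the 262 short cassette exons and 72.7% among the 482 events of other types. The median absolute ΔPSI was 13 points, with quartiles of 7 and 20. It was 10 points for frame-shifting exons, 12 for short cassette exons, 10 for the other event types and 11 over all events.

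Of the frame-keeping exons, 66 reached an absolute ΔPSI of 20 points (26.5%), whereas 21.0% of all 1223 events did. The share was 16.5% among the frame-shifting exons (38 of 230) and 23.3% among short cassette exons (61 of 262). By direction, 37 of the 249 exons were at -20 points or lower, against 163 of all 1223 events (13.3%). At 20 points or higher were 29 of the 249, against 94 of all 1223 events (7.69%). The median absolute ΔPSI was 15 points for the negative exons and 11 for the positive ones, and 16 of the 22 exons at 40 points or more were negative. At the other end, 51 exons moved by 5 points or less.

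**Figure D1:**
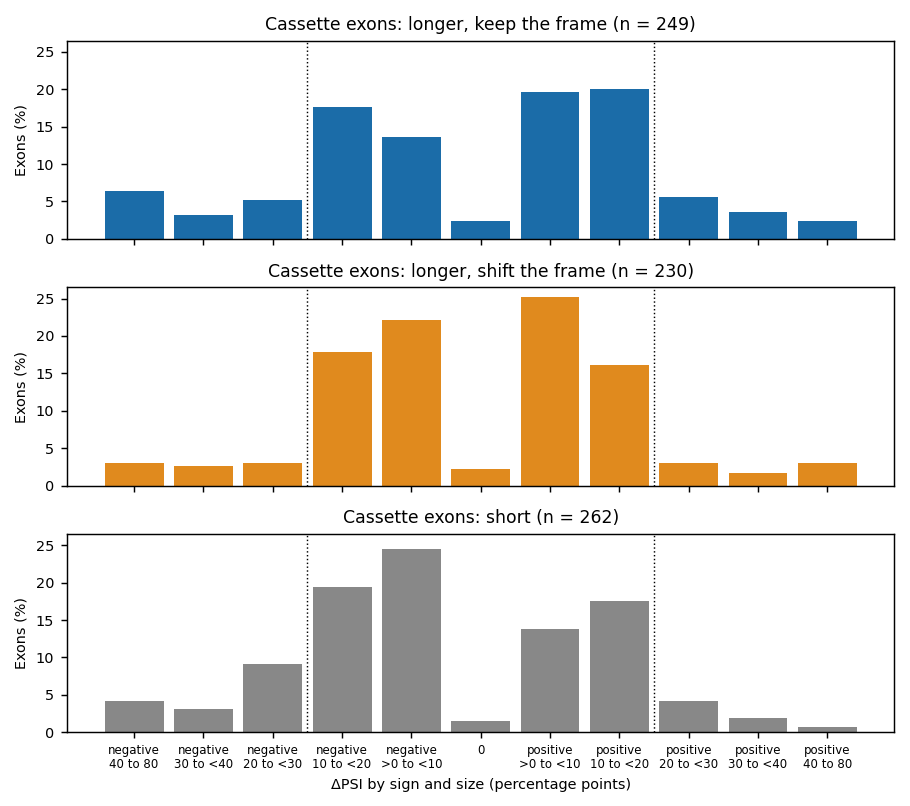
The panels plot the percentage of exons (y axis) in classes of ΔPSI in percentage points (x axis) for longer frame-keeping, longer frame-shifting and short cassette exons, with dotted lines at 20 points in each direction. The frame-keeping exons lie beyond the dotted lines in 26.5% of cases, the frame-shifting ones in 16.5% and the short ones in 23.3%.

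The 157 exons that were wholly coding in an annotated transcript held a median of 40 codons. Lengths of all 249 exons ran from 81 to 2976 nt, with a median of 126 nt. Of the 63 exons of under 100 nt, 21 reached 20 points (33.3%), as did 24 of 97 from 100 nt to under 150 nt (24.7%), 15 of 73 from 150 nt to under 300 nt (20.5%) and 6 of 16 of 300 nt or more. Just inside the length limit, the 8 exons of 81 nt had a median absolute ΔPSI of 14.8 points. They included Smap1 (-34), Postn (32), Reep6 (32), Gtf2ird1 (18.5) and Fxr1 (4). Just outside it, the 10 cassette exons of 78 nt had a median of 9.5 points and the 12 of 75 nt a median of 12 points. The share at 20 points was 37.5% at 81 nt, 30.0% at 78 nt and 33.3% at 75 nt.

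For 234 of the 249 exons, 1 annotated exon of the same gene and length could be identified, and 219 of these (93.6%) are skipped in at least 1 annotated transcript of the gene. Of the 234, 157 were wholly coding in an annotated transcript (67.1%), 34 were partly coding (14.5%), 27 were untranslated in coding transcripts (11.5%) and 16 occurred in non-coding transcripts only (6.84%). Among the frame-shifting exons, 85 of 212 were wholly coding (40.1%) and 61 were partly coding (28.8%). Short cassette exons were wholly coding in 178 of 251 cases (70.9%). A length that is a multiple of 3 therefore did not by itself mark a coding exon: 77 of the 234 were not wholly coding, and 48 of those held a stop codon in all 3 forward frames.

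Of the 34 partly coding exons, 27 held the end of a coding sequence and 7 held its start. In 22 of the 27, the coding sequence ended there only in transcripts that the annotation marks for nonsense-mediated decay, the pathway that degrades transcripts with an early stop codon. The shares among the 66 exons of 20 points or more resembled those of all frame-keeping exons: of 62 matched, 44 were wholly coding (71.0%).

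**Figure D2:**
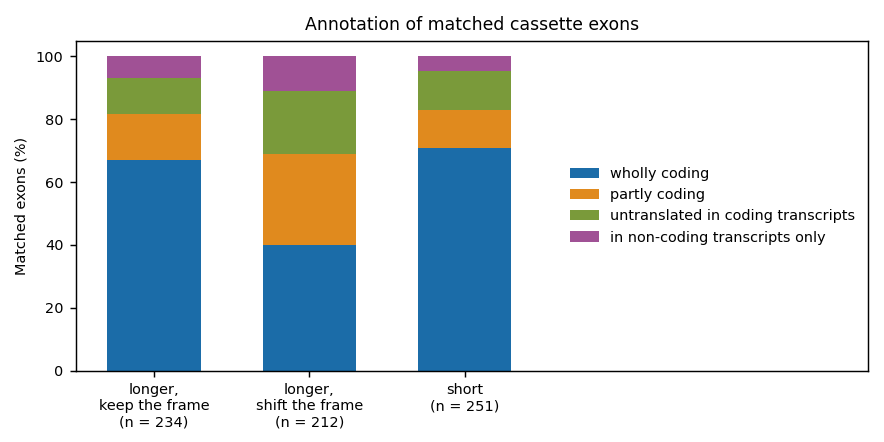
Bars give the percentage of matched cassette exons (y axis) by annotation in GENCODE M21, for 234 longer frame-keeping, 212 longer frame-shifting and 251 short exons. The wholly coding share is 67.1%, 40.1% and 70.9% from left to right.

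Where the exon is wholly coding, its presence or absence adds or removes residues without changing the rest of the protein, apart from the residue at the junction when the exon begins inside a codon. Of the 157 wholly coding exons, 69 began at the first base of a codon, so that skipping them removes whole codons, and 86 began inside a codon. For 140 of them, at least 1 protein-coding transcript is annotated over its whole coding sequence, and the exon made up a median of 6.03% of it (quartiles 3.58% and 11.4%). The smallest share was 0.479%, for the 111-nt exon of Dst, which encodes the cytoskeletal linker dystonin.

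In 12 genes the exon made up over 20% of the coding sequence. The 1092-nt exon of Ndufv3, a subunit of mitochondrial complex I, was 77.8% of the coding sequence and had a ΔPSI of -4. The 2976-nt exon of the nuclear receptor coactivator Ncoa6 was 47.9% (ΔPSI -4), and the 975-nt exon of Nasp, a histone chaperone, was 42.0% (ΔPSI 3). Of the 12, 3 had an absolute ΔPSI of 20 points or more. The 843-nt exon of Enah was 35.0% of the coding sequence with a ΔPSI of -34.5. The 879-nt exon of Rpgr was 28.2% with a ΔPSI of 30. The 1203-nt exon of Mbd5, a protein with a methyl-CpG binding domain, was 23.2% with a ΔPSI of -55, which corresponds to 401 residues.

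**Figure D3:**
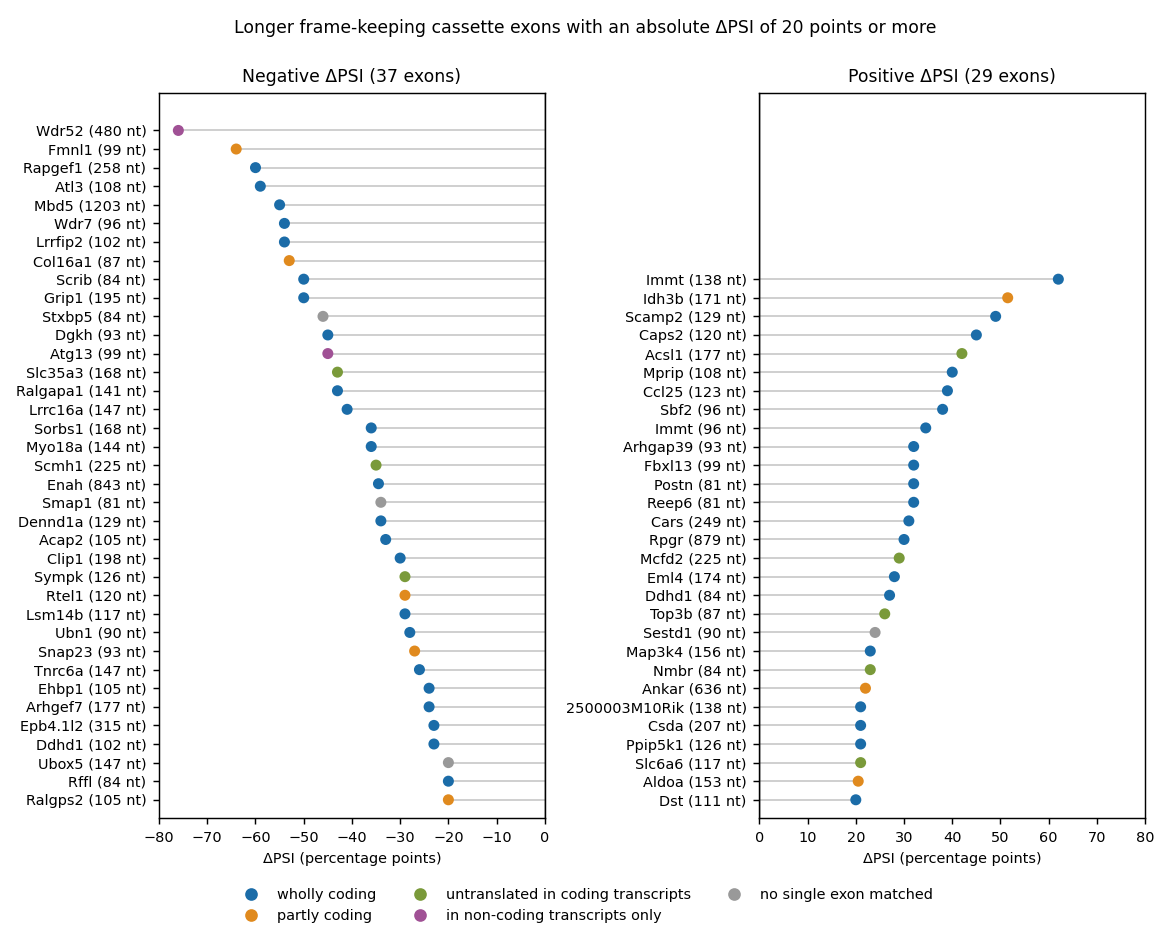
Points give ΔPSI in percentage points (x axis) for the 66 exons with an absolute ΔPSI of 20 points or more, labelled by gene and exon length and coloured by annotation. The 37 negative values reach -76 in Wdr52 and the 29 positive values reach 62 in Immt.

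The gene groups here and below are partial lists, chosen with earlier results of these data known, and their counts do not cover every gene of a kind. Over all 249 exons, 26.5% reached 20 points, and over all events 21.0% did. Genes of the membrane traffic list held 12 of the exons, 8 negative and 4 positive, and 6 of the 12 reached 20 points (50.0%). Atl3, an atlastin GTPase that shapes the endoplasmic reticulum, had a 108-nt coding exon with a ΔPSI of -59. Dennd1a, an exchange factor for a Rab GTPase, was at -34, and Ehbp1, a protein of endocytic recycling, was at -24. In Snap23, a SNARE protein of membrane fusion, the 93-nt exon was at -27 and ended the coding sequence in transcripts marked for decay. Scamp2, a secretory carrier membrane protein, went the other way with a 129-nt coding exon at 49. Kif1b, a kinesin motor, was at -2, and Picalm, a clathrin assembly protein, was at 8.

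From the list of actin cytoskeleton genes, 10 held 11 of the exons, of which 7 were negative and 4 were positive. Of the 11, 7 reached 20 points (63.6%, against 26.5% of all 249 exons). The formin Fmnl1 had the second lowest value of the 249 exons, -64, for a 99-nt exon (mm9 chr11:103059449-103059547, plus strand) that is number 26 of 27 and holds the end of the coding sequence in a protein-coding transcript. Enah, an Ena/VASP protein that promotes filament growth, was at -34.5, and the unconventional myosin Myo18a was at -36 for the 144-nt exon printed above. Arhgef7, an exchange factor for Rac and Cdc42, was at -24. Mprip, which links myosin phosphatase to RhoA, was at 40, and Dst was at 20.

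Lrrfip2, which encodes an interaction partner of the actin-binding protein flightless, held 2 of these exons with opposite signs. Its 102-nt exon was at -54 and its 93-nt exon, the one just upstream, was at 14, while the event that takes both exons as a tandem pair was at -57. Each of these exons was wholly coding only in a transcript marked for decay, and no annotated transcript was found that skips it.

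Genes of the adhesion and polarity list held 3 exons, all negative. Genes of this kind outside the list were not counted, so the shared sign holds for the listed genes only. The 258-nt exon of Rapgef1, an exchange factor for the small GTPase Rap1 that acts at adhesion sites, was at -60, and a tandem event that covers it was at -34.5. The 84-nt exon of Scrib, a scaffold of epithelial polarity, was at -50. Cadm1, an immunoglobulin-like adhesion molecule that joins germ cells to Sertoli cells, was at -11.

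From the list of cilium, flagellum and microtubule genes, 7 held 8 exons, 3 negative and 5 positive, with 3 at 20 points or more. The lowest ΔPSI of all 249 exons, -76, belonged to a 480-nt exon (mm9 chr16:44414711-44415190, plus strand) of Wdr52, a gene of the flagellar axoneme. Its only matching exon lies in a transcript annotated as non-coding. Clip1, a protein of growing microtubule ends, was at -30. Rpgr, a regulator of transport into cilia, was at 30, and Odf2l, a centriolar protein, was at 19. Pcm1, a component of centriolar satellites, held 1 exon at 15 and 1 at -6. Ttll5, a tubulin glutamylase, was at 12 and Odf2, of the outer dense fibres of the sperm tail, at 11, both for partly coding exons.

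From the list of mitochondrial and metabolic genes, 6 held 7 exons, 2 negative and 5 positive. Of the 7, 4 reached 20 points (57.1%, against 26.5% of all 249 exons), all positive. Outside the list, Aldoa was at 20.5, Tmem11 at -15, and Rhot1 and Mrpl30 were each at -11. Immt encodes the mitochondrial inner membrane organiser mitofilin. Its neighbouring coding exons of 138 and 96 nt were at 62 and 34.5, and the tandem event spanning both was at 68. They encode 46 and 32 codons, and both begin inside a codon at the same position. Idh3b, a subunit of the NAD-dependent isocitrate dehydrogenase, was at 51.5 for a 171-nt exon (mm9 chr2:130105292-130105462, minus strand) that ended the coding sequence only in a transcript marked for decay. Acsl1, a long-chain acyl-CoA synthetase, was at 42 for an exon that is untranslated in its coding transcript, number 2 of 6. Pkm, pyruvate kinase, was at 13, and Mff, a mitochondrial fission factor, was at -9.

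Genes of the signalling list held 8 exons, 3 negative and 5 positive, with 3 at 20 points or more. Dgkh, a diacylglycerol kinase, was at -45, and Ralgapa1, which inactivates Ral GTPases, was at -43. The kinase Map3k4 was at 23. The other 5 lay within 11 points of 0, among them the casein kinase Csnk1a1 at -3 and the kinase Wnk1 at 8.5. Of the RNA-processing list, only Tnrc6a and Fxr1 held an exon, at -26 and 4, although 28 genes of that list had some splicing event. Tnrc6a is a GW protein of microRNA silencing. Genes linked to RNA outside the list also held exons, among them Sympk and Lsm14b at -29, Rbm27 at -19, Csda at 21 and Sugp2 at 16.

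From the list of chromatin and transcription genes, 7 held 8 exons, 6 negative and 2 positive, and none of these 8 reached 20 points. Chromatin genes outside the list did, with Mbd5 at -55, the Polycomb protein gene Scmh1 at -35 and Ubn1, a histone chaperone subunit, at -28. The 8 exons of the list were all wholly coding. Ehmt2, a histone H3 methyltransferase, was at -16 and Gtf2ird1 at 18.5. Mybl1, a transcription factor of meiotic germ cells, was at -14. The list of spermatocyte markers held 2 of the 249 exons, that of Mybl1 and that of the meiotic cohesin subunit Stag3, at 16. Stag3 is outside the chromatin list. Bptf, a subunit of a chromatin remodeller, held 2 exons at -6 and -2. No exon of the 249 belonged to the lists of spermatid, Sertoli, Leydig, macrophage or myoid marker genes. Further exons of 20 points or more lie outside these lists. The PDZ scaffold Grip1 was at -50 for its 195-nt exon, Stxbp5, a SNARE-binding tomosyn, at -46, and Lrrc16a, a regulator of actin capping protein, at -41. The Arf GTPase-activating proteins Smap1 and Acap2 were at -34 and -33, while Mcfd2, which helps carry cargo out of the endoplasmic reticulum, was at 29. Wdr7 was at -54 and the nucleotide sugar transporter Slc35a3 at -43, for Slc35a3 in an untranslated exon. The collagen gene Col16a1 was at -53 for an exon that ended the coding sequence in a transcript marked for decay, and the autophagy gene Atg13 was at -45 for an exon of a non-coding transcript. On the positive side were Caps2, a calcium-binding protein, at 45, the chemokine gene Ccl25 at 39 and Sbf2, a myotubularin-related protein, at 38. Arhgap39, Fbxl13, Postn and Reep6 were each at 32, and Cars, a cysteinyl-tRNA synthetase, was at 31. None of the counts by list was tested, and the size of the lists limits what a share in them can show.

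Of the 241 genes, 8 held 2 of the exons. Ddhd1, a phospholipase, had opposite signs at 27 and -23 for exons 13 and 3 of its 14-exon transcript, and Lrrfip2 and Pcm1 also had opposite signs. Immt, Bptf, Spata7, Tusc3 and Ccdc136 had the same sign at both exons. In 87 of the 241 genes another event was listed as well, and 37 of the exons shared bases with another event of their gene. In 20 of the 23 overlaps with a tandem event the signs were the same. The exceptions were the 93-nt exon of Lrrfip2, Plcd4 (11 for the exon and -10 for the tandem event) and Uspl1, whose exon was at 0. The signs were also the same in 5 of 6 overlaps with mutually exclusive exons, 7 of 9 with alternative splice sites and 3 of 5 with retained introns. Among the opposite ones, the zinc finger gene Zfp62 was at -17.3 for the exon and 60 for an alternative 3′ splice site, Sugp2 at 16 and -35 for a retained intron, and Idh3b at 51.5 and -10 for a retained intron. Overlapping events can draw on the same reads, so they are not independent measurements.

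Exons with negative and positive ΔPSI differed in base composition, a property that the choice of exons did not use. Among the matched exons, pyrimidines made up a median of 52.0% in the 105 negative exons and 46.7% in the 123 positive ones. The tetramer CTCT occurred in 70.5% of the negative exons and 47.2% of the positive ones, and TCTT in 58.1% and 44.7%. Among the wholly coding exons alone, CTCT occurred in 64.3% of 70 negative and 48.2% of 85 positive ones. Both tetramers can overlap each other, and either one was present in 71.4% of all 234 exons. On the opposite strand, CTCT ran the other way, occurring in 55.2% of the negative exons and 66.7% of the positive ones.

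Since longer exons hold more tetramers, the comparison was repeated on exons of 81 to 150 nt. There CTCT occurred in 67.6% of 68 negative and 34.5% of 84 positive frame-keeping exons, and in 53.0% of 66 negative and 39.0% of 59 positive frame-shifting exons. Over all 78998 internal coding exons of that length in the GENCODE M21 basic annotation, 40.0% held CTCT, 36.7% held TCTT and the median pyrimidine share was 47.2%. The cassette exons set beside them include exons that are not wholly coding, so the sets are not fully alike. The median pyrimidine share was 54.5% in the negative and 46.2% in the positive frame-keeping exons of that length. Composition varied within a direction, as the printed Rapgef1 and Dgkh exons show. These are descriptions of the exons: a tetramer is not shown to be a binding site, the introns were not examined, and the difference was not tested.

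**Figure D4:**
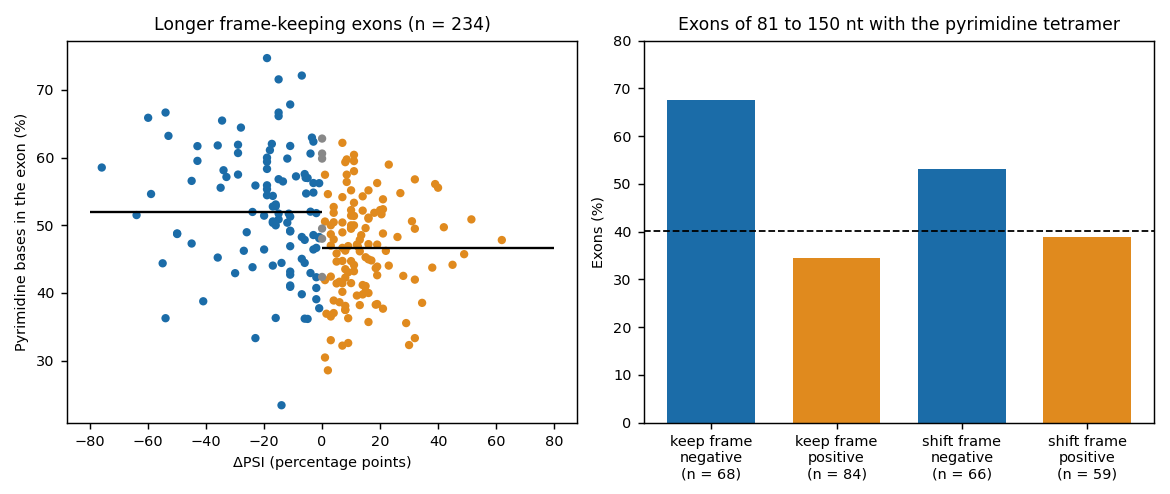
The left panel plots the pyrimidine percentage of each matched frame-keeping exon (y axis) against its ΔPSI in percentage points (x axis), with horizontal lines at the medians of 52.0% for negative and 46.7% for positive values. The right panel gives the percentage of exons of 81 to 150 nt that hold CTCT by class and sign, with a dashed line at the 40.0% of all internal coding exons of that length.

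The expression table of the series holds RPKM (reads scaled by gene length and library size) for 988 genes that the authors had selected as differing between the genotypes, in the same 4 libraries. In it Ptbp2 was at 111 and 98.2 RPKM in the libraries labelled cKO, against 65.7 and 66.6 RPKM in the WT libraries, which goes against the label. The difference was 0.65 ± 0.27 on the log2(RPKM + 1) scale (SE, limma), with a Benjamini-Hochberg (BH) adjusted p of 0.0684. RPKM over a whole gene can hold reads from a transcript that makes no protein, so this value checks the deletion only in part. Of 33 spermatid marker genes 28 were in the table, all 28 were lower in the libraries labelled cKO, and none was at 0. Their summed RPKM was 373 and 87.8 in the libraries labelled cKO, against 2433 and 3171 in WT. Of the spermatocyte markers 3 of 20 were in the table, all lower, and the Sertoli, Leydig and macrophage markers in the table (1, 1 and 3 genes) were higher, while the 1 myoid marker was lower. In RNA of whole testis, fewer cells of a type and less RNA per cell cannot be told apart, and the part of either in ΔPSI was not tested.

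Of the 241 genes with a longer frame-keeping exon, 23 were in the expression table (9.54%), against 65 of the 674 other genes with a splicing event (9.64%). In all 23, both libraries labelled cKO were below both WT libraries, as in 93.6% of the 988 genes. With limma on log2(RPKM + 1), 20 of the 23 were lower at a BH adjusted p below 0.05, against 83.9% of the table, and none was higher, against 1.92% of the table. None was higher at an unadjusted p below 0.05 either. The median difference of the 23 was -1.22 on the log2 scale, and that of all 988 genes was -1.59. Leaving out 1 WT library moved the differences little. That of Acsl1 was -1.78 with all libraries, -1.89 without WT library 1 and -1.67 without WT library 2. For Dgkh the values were -2.11, -2.14 and -2.07. In those fits the error rests on the spread of the 2 libraries labelled cKO alone, so counts of calls are not given. Leaving out 1 library labelled cKO moved some differences more. Without cKO library 1 and without cKO library 2, that of Acsl1 was -1.95 and -1.61, and that of Dgkh was -2.42 and -1.79. For Nt5c1b, at -3.04 with all libraries, the values were -4.06 and -2.02. For Scamp2 they were -0.675 and -0.676. When only genes above the median RPKM of the table were tested, 11 of the 18 that remained of the 23 genes were lower at the same threshold, against 312 of 494 over the table. The authors chose these genes on the same libraries, so the test is not independent evidence of a direction.

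Several exons with a large ΔPSI lay in genes whose expression also differed. Dgkh, at -45 points, had 3.86 and 2.14 RPKM in the libraries labelled cKO, against 15.4 and 16.2 RPKM in WT, and the groups did not overlap. The difference was -2.11 ± 0.34 on the log2(RPKM + 1) scale (SE, limma, BH adjusted p 0.0177). Fbxl13, an F-box protein, at 32 points, had 12.3 and 4.16 RPKM in the libraries labelled cKO, against 45.9 and 52.5 RPKM in WT. It fell by 2.59 ± 0.53 (SE, limma, BH adjusted p 0.0177), with libraries labelled cKO that lay far apart. Acsl1, at 42 points, had 17.0 and 13.2 RPKM in the libraries labelled cKO, against 49.8 and 58.2 RPKM in WT. It fell by 1.78 ± 0.29 (SE, limma, BH adjusted p 0.0177).

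Grip1, at -50 points, had 4.89 and 4.53 RPKM in the libraries labelled cKO, against 15.6 and 16.7 RPKM in WT, with little spread within either group. Wdr52, with the lowest ΔPSI, had 12.1 and 8.55 RPKM in the libraries labelled cKO, against 28.8 and 28.4 RPKM in WT. Fmnl1 was the least expressed of the 23, with 2.23 and 1.34 RPKM in the libraries labelled cKO, against 4.48 and 3.96 RPKM in WT, and its difference of -0.92 ± 0.31 (SE, limma) had a BH adjusted p of 0.0425. All 3 passed the threshold. Scamp2, at 49 points, did not: it had 24.8 and 24.8 RPKM in the libraries labelled cKO, against 39.9 and 40.4 RPKM in WT (BH adjusted p 0.0599, limma). Dnajb2, a co-chaperone, and Sdccag8, a centrosomal protein, also missed it at 0.0714 and 0.0614 (BH, limma).

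The largest difference in expression was in Nt5c1b, a cytosolic nucleotidase, with 18.5 and 3.76 RPKM in the libraries labelled cKO, against 74.7 and 82.0 RPKM in WT. It fell by 3.04 ± 0.73 on the log2 scale (SE, limma, BH adjusted p 0.0201), while its 93-nt exon had a ΔPSI of only -3. The uncharacterised gene 1700015F17Rik likewise had 18.6 and 6.46 RPKM in the libraries labelled cKO, against 71.1 and 80.2 RPKM in WT, with a ΔPSI of -1. In Rab3il1, whose product acts on Rab GTPases, the exon was at 16 points, with 9.12 and 5.52 RPKM in the libraries labelled cKO, against 35.1 and 40.8 RPKM in WT. Library 2 labelled cKO was below library 1 in 22 of the 23 genes, the exception being Scamp2. It was also the lower one for the summed spermatid markers, and the part of those cells in these differences was not tested.

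**Figure D5:**
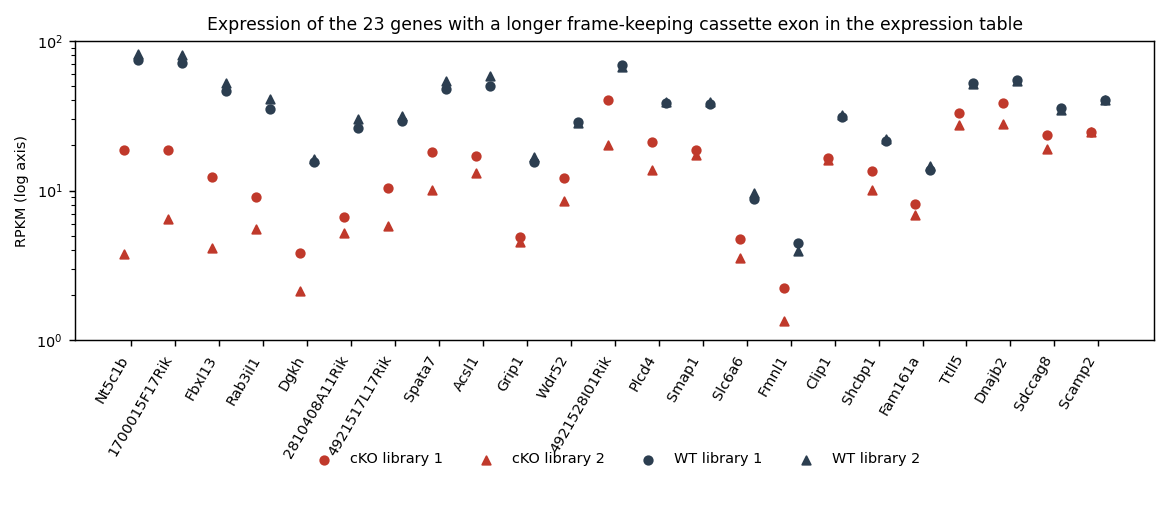
Points give RPKM on a log axis (y axis) of each library for the 23 genes with a longer frame-keeping exon that are in the expression table (x axis, ordered by the log2 difference), with libraries labelled cKO to the left of WT. Both libraries labelled cKO lie below both WT libraries in every one of the 23 genes.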

How the data were processed

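RNA of whole testes of 2 cKO and 2 WT mice was sequenced, with 1 library per mouse. The submitters' processing notes name the mouse builds mm9 and mm10 without a role, and the sources used here do not name the aligner, the splicing caller or the filters. Per the file headers, the authors deposited RPKM per library and genotype means in RPKM, a log2 fold change and an adjusted p-value for 988 genes, and ΔPSI for 1223 events. Read depth is unknown, since neither totals nor gene lengths accompany the RPKM.

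Splicing coordinates were taken as mm9 with a start counted from 0: the end minus the start equals the length of an exon annotated for that gene in 705 of 734 cassette exons, against 78 with 1 added. Blank gene names took the name above. Exons were matched to GENCODE M21 (mm10) by gene, strand and length (200 unique, 34 by a distance between builds shared with other exons), and coordinates were not converted. Of the other 15, 6 had several candidates, 7 had none and 2 genes were not annotated. Sequences came from the annotated transcripts. No sequence of chromosome 18 was printed, and 1 further sequence is not reported here.

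For expression, log2(RPKM + 1) was fitted with limma 3.58.1 (R 4.3.3); this scale understates changes of low values. All 988 genes were tested, with no filter, no block and a BH threshold of 0.05. The fit was tested on simulated data. A two-sided exact permutation test on 4 libraries could not give a p under 0.333. Python 3.11.15, numpy 2.4.6, pandas 2.3.3 and matplotlib 3.10.9 were used. The rule for naming took exons of 20 points or more, list members and genes in the expression table. Exons that it did not cover are named for their share of the coding sequence, for holding a pair of exons or for overlapping another event. Others are named as genes of a listed kind that lie outside its list. These additions were made after their values were seen. Members and gene lists were chosen with earlier results of these data known. Alternatives were other length rules, 1 event per gene, named rows only, another pseudocount (0.1), a filter on low values, a replicate block and leaving out each library.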

Additional observations from a re-analysis of the deposited data

How the results depend on the processing

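ΔPSI has no error, so its sizes cannot be ranked beyond their printed values, and exon annotation rests on length matches in another build. Taking the length as the end minus the start plus 1 selects 112 other exons, of which 17.9% reached 20 points with a median absolute ΔPSI of 10. The other length limits, 1 event per gene, named rows only, and, chosen after seeing the data, wholly coding exons only and exons overlapping no other event, left the share at 20 points between 24.2% and 28.0% and the negative share between 44.4% and 48.7%. At 10 points or more, 50.6% were negative.

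Of the 20 genes lower in the libraries labelled cKO, the filter to genes above the median RPKM of the table left 11 of the 18 tested (15 of the 20 were among the 18; 312 of 494 over the table), and the pseudocount of 0.1 left 16 (765 over the table). Leaving out 1 library gave between 4 and 23 genes (353 to 925 over the table), 23 without cKO replicate 1 or without cKO replicate 2, and fewest without WT replicate 2; the lone sample left in a group is assumed to vary like the other group. None of the 23 genes was higher under any of these settings. With either library labelled cKO left out, every gene of the whole table was called, lower or higher. The calls of the 23 genes were therefore fixed in those fits and cannot show whether the result is robust. With the replicate number as a block, 11 genes were lower, and 622 of the whole table against 829 without it. Same-numbered libraries deviated in opposite directions (correlation -0.33 over 988 genes), and with the numbers crossed, chosen after seeing the data, 15 genes were lower, and 758 over the table. The labels do not say that the numbers pair mice.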
